A study of Mus musculus with 12 samples.

Results

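The step from pre-meiotic germ cell to early pachytene spermatocyte was followed inside 3 single-cell RNA libraries of Zfp541 knockout mouse testis, called knockout libraries 1, 2 and 3. The cells were chosen by the class that the authors' deposited cell table gives them. Early pachytene cells were set against pre-meiotic cells, and the UMIs (unique molecular identifiers, 1 per captured transcript) of each class were summed within each library. The rule takes 202 of the 929 cells of the series, 141 early pachytene (59, 50 and 32 in libraries 1, 2 and 3) and 61 pre-meiotic (23, 20 and 18). They are all the kept cells of these 3 libraries, and they give 6 sums in 3 pairs. The animals were C57BL/6 mice. Pups at 2 days after birth were fed WIN 18,446, a blocker of retinoic acid synthesis, for 7 days and then injected with retinoic acid, which starts meiosis in step. Testes were taken 260 h after that injection, enriched for early pachytene cells, and single cells were picked by mouth pipette for a modified Smart-seq2 protocol that counts 3′ ends. The wild-type groups of the series had the same feeding and injection, and the 3 wild-type libraries of 260 h (154 early pachytene and 52 pre-meiotic cells) are used below only where the genotypes are compared. The labels used here give neither the deleted part of Zfp541 nor the animal behind each library. The p-values below therefore reflect how much libraries vary, which could be technical in part.

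Male germ cells pass from dividing spermatogonia through a last round of DNA replication into meiotic prophase, where homologous chromosomes break, pair and cross over. At pachytene the pairs are joined by the synaptonemal complex, while the X and Y chromosomes, which share little sequence, are folded into the sex body and silenced. At the same stage spermatocytes begin to transcribe genes whose products serve later, in sperm tail, acrosome and sperm metabolism, and the PIWI-interacting RNAs of pachytene. ZFP541 is a zinc finger protein of spermatocytes that is found with KCTD19 and histone deacetylases.

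The 6 sums held 2328061 to 7142215 gene UMIs for early pachytene and 1273457 to 2861429 for pre-meiotic cells. The median cell had 88572 gene UMIs and 8770 genes in early pachytene, and 94845 gene UMIs and 9734 genes in pre-meiotic cells. The early pachytene cells carried 9.47 ± 1.00 gene UMIs per spike-in UMI (a synthetic RNA added to each cell; SD, n = 3 libraries) and the pre-meiotic cells 9.74 ± 1.05, a log2 ratio of −0.04 ± 0.07 (SD). Library 3 was the shallowest, and its sums had the most detected genes (31158 in early pachytene, against 21368 and 26002 in libraries 2 and 1). Of the 96 barcodes of each library 38 were kept in all 3 of them.

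In edgeR's quasi-likelihood test with the library as a block, 6967 of 12876 genes tested were called (adjusted p by Benjamini-Hochberg under 0.05; 54.1%), 3681 higher in early pachytene (28.6%) and 3286 lower (25.5%). The authors drew the classes from clusters of the same cells' expression, so these calls say how steady a difference was over the 3 libraries. They are not independent evidence that the classes differ, and no p-value of this comparison is given. The shares 28.6% and 25.5% are the background for every list count below. A gene could pass the count filter through 1 class alone, which favours low values in the other class. The sums of the 2 classes did not overlap in 6528 of the 12876 genes tested (50.7%). That share is the background wherever a gene is said not to overlap. Genes taken from a list by smallest p overlap less often by that choice. Levels are given as CPM, counts per 1000000 UMIs of a sum after TMM scaling, in the order of libraries 1, 2 and 3, and fold changes as log2 of early pachytene over pre-meiotic ± SE. The median of all genes was 0.04. Scaled by spike-in UMIs it was −0.25. Higher genes made up 52.8% of the calls with TMM and 38.1% with spike-ins, so a difference smaller than about that shift depends on the scaling.

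The markers chosen for each class followed the labels. All 8 pre-meiotic markers (Kit, Dmrt1, Sohlh1, Stra8, Uchl1, Dnmt3b, Zbtb16 and Crabp1) were lower in early pachytene, and together they stood at 2047 to 2357 CPM, here per total gene UMIs without TMM, in the pre-meiotic sums and 207 to 253.6 in the early pachytene sums. Of the 8 markers of early meiotic prophase 6 were higher, and Prdm9 and Rec8 were not called. Of the 7 pachytene markers tested 6 were higher, Piwil1, Mybl1, Tdrd5, Ldhc, Insl6 and Hspa2, while Adam3 was not called. Pgk2 was too low to test, with 1 to 5 UMIs in the pre-meiotic and 6 to 22 in the early pachytene sums. The pre-meiotic class also held meiotic transcripts, with Sycp1 at 830.4, 644 and 851 CPM and Smc1b at 394, 681 and 425 CPM.

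The targeted gene, Zfp541 (mm10 chromosome 7, bases 16061814 to 16096334 of the plus strand), was higher in early pachytene although the libraries are labelled knockout. It had 161, 52 and 30 UMIs in the pre-meiotic sums and 1174, 672 and 338 in the early pachytene sums. That was 51.3, 22.5 and 21.8 CPM in pre-meiotic and 181, 156 and 154 CPM in early pachytene sums. The classes did not overlap, and the log2 fold change was 2.40 ± 0.21. In wild type it was 1.77, and the difference between the genotypes did not pass the test (0.71 ± 0.41, adjusted p = 0.501). Scaled over the 12 sums of both genotypes, Zfp541 levels in early pachytene were 82.1, 112 and 158 CPM for wild type and 185, 161 and 152 CPM for the libraries labelled knockout. In pre-meiotic sums they were 9.26, 42.1 and 64.5 CPM and 50.7, 22.3 and 19.8 CPM. The genotypes overlapped in both classes, and the libraries labelled knockout did not have the lower early pachytene levels. A 3′ count checks a deletion only if the deleted part holds the counted end, and the labels do not give that part, so the knockout label was not checked by these levels. Its partner gene Kctd19 was at 18.5, 12.96 and 6.54 CPM in pre-meiotic and at 159, 197 and 129 CPM in early pachytene sums (3.64 ± 0.23). Kctd19 was also named by a rule that required no overlap between the classes. The heat shock protein gene Hspa2 (2.46 ± 0.13) and the deacetylase gene Hdac1 (0.98 ± 0.16) were the other members higher among 11 genes of the complex tested. The X-linked chaperone of histones Rbbp7 was lower (−2.62 ± 0.16), and 6 members were not called, among them Hdac2 (0.17 ± 0.13) and Dnttip1 (0.40 ± 0.19).

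X-linked transcripts were low in early pachytene. Their share of gene UMIs was 2.18%, 2.29% and 2.27% in the pre-meiotic sums of libraries 1, 2 and 3 and 0.428%, 0.390% and 0.487% in the early pachytene sums. The means were 2.25 ± 0.06% and 0.435 ± 0.048% (SD, n = 3), a log2 ratio of −2.37 ± 0.16 (SD). Single cells did not overlap either, with 1.82% to 2.77% in the 61 pre-meiotic and 0.272% to 0.760% in the 141 early pachytene cells. In wild type the ratio was −2.24 ± 0.12, and the difference between genotypes did not pass an exact two-sided permutation test of 3 against 3 libraries (p = 0.4, adjusted p = 0.5625 over 9 measures, smallest possible p = 0.1). Y-linked UMIs were 0.0579 ± 0.0234% of the pre-meiotic and 0.0140 ± 0.0052% of the early pachytene sums. X-linked genes are also part of what the cells were clustered on, and with 3 pairs an exact sign-flip test cannot go below p = 0.25, so the shares stand as a description.

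**Figure D1:**
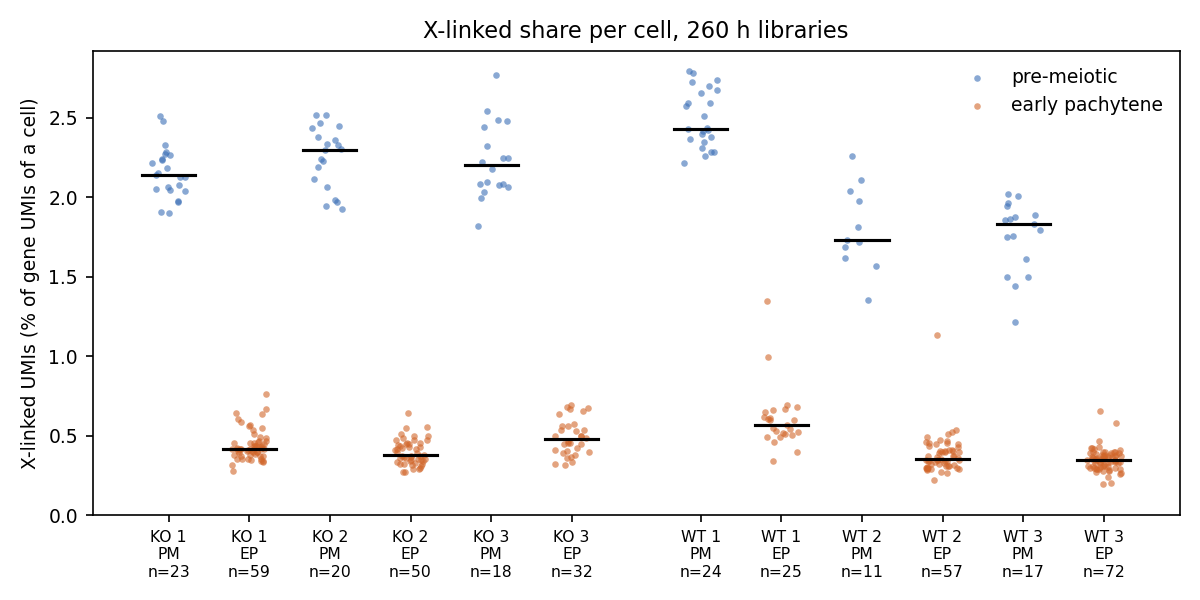
X-linked UMIs as a percent of the gene UMIs of each cell (vertical axis), for pre-meiotic (PM, blue) and early pachytene (EP, orange) cells of each 260 h library; a point is a cell, a black bar the median of its column. In the knockout libraries every early pachytene cell lies at or below 0.760% and every pre-meiotic cell at or above 1.82%.

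Gene by gene, 321 of 371 X-linked genes tested (of 948 in the table) were lower in early pachytene, 297 of them by at least 4-fold, and 4 were higher. An X-linked gene could pass the filter through the pre-meiotic sums alone, which favours falls in these counts and in the median. The median log2 fold change was −3.01, while the medians of the autosomes ran from −0.03 (chromosome 19) to 0.21 (chromosome 9). Zrsr2, which encodes a splicing factor of the minor introns, was at 468, 572 and 405 CPM in pre-meiotic and at 28.8, 27.5 and 21.9 CPM in early pachytene sums (−4.20 ± 0.14). The ubiquitin protease gene Usp26 was at 296, 411 and 309 CPM in pre-meiotic and at 10.05, 11.3 and 18.2 CPM in early pachytene sums (−4.75 ± 0.20). In both genes the early pachytene sums were far below the pre-meiotic sums in all 3 libraries. The rule that named Usp26 required no overlap, and Zrsr2 was named as a list member of smallest p, so this adds no support. Dkc1, the pseudouridine synthase gene of snoRNPs, was at 119.8, 139.9 and 140.2 CPM in pre-meiotic and at 5.26, 3.93 and 6.38 CPM in early pachytene sums (−4.69 ± 0.24). Rbmx2 (−4.53 ± 0.30), the signalling scaffold gene Cnksr2 (−4.89 ± 0.47) and Tex16 (−4.37 ± 0.33) were the other X-linked genes among the 10 with the largest falls. Scml2, a Polycomb protein of the sex body that is itself X-linked, was at 229, 364 and 234 CPM in pre-meiotic and at 19.01, 18.3 and 16.9 CPM in early pachytene sums (−3.90 ± 0.18).

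The 4 X-linked genes that were higher were named after their values were seen. Ndufa1, a subunit of respiratory complex I, was at 281, 362 and 192 CPM in pre-meiotic and at 680.0, 849 and 534 CPM in early pachytene sums (1.32 ± 0.11). Fmr1nb was at 79.9, 76.9 and 44.3 CPM in pre-meiotic and at 161, 277 and 136 CPM in early pachytene sums (1.48 ± 0.18), Gm364 at 51.3, 46.6 and 51.6 CPM in pre-meiotic and at 99.4, 132 and 104 CPM in early pachytene sums (1.15 ± 0.19), and the peroxiredoxin gene Prdx4 rose least (0.33 ± 0.12). Over 11 settings of the fit, 3 or 4 X-linked genes were called higher. Among Y-linked genes 7 of 9 tested were lower. The translation factor gene Eif2s3y was at 86.96, 142 and 94.4 CPM in pre-meiotic and at 20.7, 11.3 and 16.9 CPM in early pachytene sums (−2.71 ± 0.27), and the helicase gene Ddx3y (−2.39 ± 0.35) and the ubiquitin protease gene Usp9y (−2.67 ± 0.40) were lower as well. Uba1y, a ubiquitin-activating enzyme gene with a near copy on the X, was at 26.1, 130.0 and 22.5 CPM in pre-meiotic and at 0.618, 4.40 and 1.37 CPM in early pachytene sums (−4.85 ± 0.38). Library 2 was highest in both classes, and reads shared with the copy make the gene uncertain. The zinc finger genes Zfy1 (0.74 ± 0.71) and Zfy2 (−0.04 ± 0.66) were not called.

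Many X-linked housekeeping genes have autosomal relatives, mostly retrocopies, that spermatocytes use. All 14 X-linked genes of the pairs tested were lower, and 11 of their 14 autosomal relatives were higher. Of all X-linked genes tested 321 of 371 were lower, so 14 of 14 is near the share of the whole chromosome. The 14 pairs were picked by hand, and no link between the members of a pair was tested. The pyruvate dehydrogenase gene Pdha1 on the X changed by −2.53 ± 0.53 and its autosomal copy Pdha2 by 2.54 ± 0.17, from 44.6, 31.5 and 24.7 to 226, 211 and 146 CPM. The ribosomal protein gene Rpl10 was at 326, 389.6 and 186 CPM in pre-meiotic and at 23.8, 33.8 and 20.5 CPM in early pachytene sums (−3.53 ± 0.17). Its copy Rpl10l, which takes over in meiosis, was at 134, 67.4 and 119.8 CPM in pre-meiotic and at 431, 277 and 328 CPM in early pachytene sums (1.73 ± 0.14). In both pairs the classes of either gene did not overlap, and the directions were opposite in every library. Cox7b, a subunit of cytochrome oxidase, and Cox7b2 moved by −3.44 and 2.14, the centrins Cetn2 and Cetn1 by −4.22 and 1.94, and the mRNA export factors Nxt2 and Nxt1 by −2.21 and 1.84. Relatives not called were Utp14b (0.58 ± 0.28), Rpl36al (−0.02 ± 0.17) and Tspyl1 (−0.66 ± 0.28). Near-identical copies can share reads in either direction. Rpl36a-ps2 on chromosome 3 (−5.00 ± 0.29) is uncertain for this reason, a pseudogene that moved with its X-linked parent Rpl36a (−3.83 ± 0.13).

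**Figure D2:**
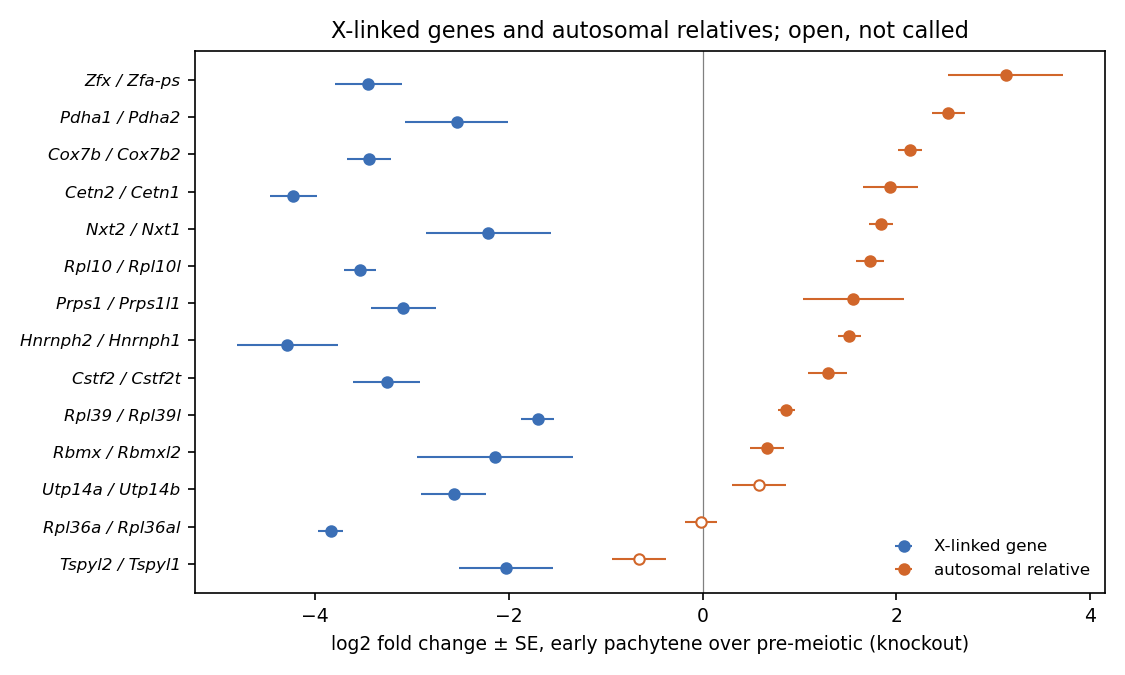
Log2 fold change of early pachytene over pre-meiotic in knockout (horizontal axis; bars are ± SE from 3 library pairs) for 14 X-linked genes (blue) and their autosomal relatives (orange); open circles were not called. All 14 X-linked genes lie below 0, and the 3 open circles are Utp14b, Rpl36al and Tspyl1.

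Spermatogonial genes were low in early pachytene cells. Of 14 genes of undifferentiated spermatogonia tested 12 were lower and 1 higher (median log2 fold change −2.94), and of 17 of differentiating spermatogonia 14 were lower and 2 higher (−2.89). Here too a gene could pass the filter through the pre-meiotic sums alone. Zbtb16 (PLZF), a transcription factor of the stem and progenitor pool, was at 120.4, 50.97 and 219 CPM in pre-meiotic and at 5.26, 2.31 and 12.8 CPM in early pachytene sums (−4.34 ± 0.24). Library 3 had the highest Zbtb16 in both classes and library 2 the lowest, but the ratio was alike in the 3 pairs. The growth-response factor gene Egr4 was at 112, 66.1 and 156 CPM in pre-meiotic and at 10.05, 4.86 and 6.38 CPM in early pachytene sums (−3.86 ± 0.26) and the pluripotency-related factor gene Sall4 at 57.3, 71.7 and 118 CPM in pre-meiotic and at 5.56, 5.32 and 10.5 CPM in early pachytene sums (−3.52 ± 0.26). Dmrt1, which holds back entry into meiosis, was at 329, 359 and 358 CPM in pre-meiotic and at 37.3, 30.5 and 28.7 CPM in early pachytene sums (−3.42 ± 0.16), with little spread in either class. Uchl1, a ubiquitin hydrolase of spermatogonia, was at 885, 813 and 759 CPM in pre-meiotic and at 150.2, 125 and 116 CPM in early pachytene sums (−2.65 ± 0.11), and the stem cell factor receptor gene Kit fell by 3.43 on the log2 scale. Of the 17 differentiating genes 4 are X-linked, among them the mRNA export factor gene Nxf2 (−3.92 ± 0.21). The members that went up were Id4 (77.7, 58.3 and 77.00 against 311, 331 and 382 CPM, 2.26 ± 0.14), an inhibitor of helix-loop-helix factors that marks stem cells in the adult, Prss50 (2.61 ± 0.15), a testis protease gene, and Sohlh2 (1.91 ± 0.13).

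**Figure D3:**
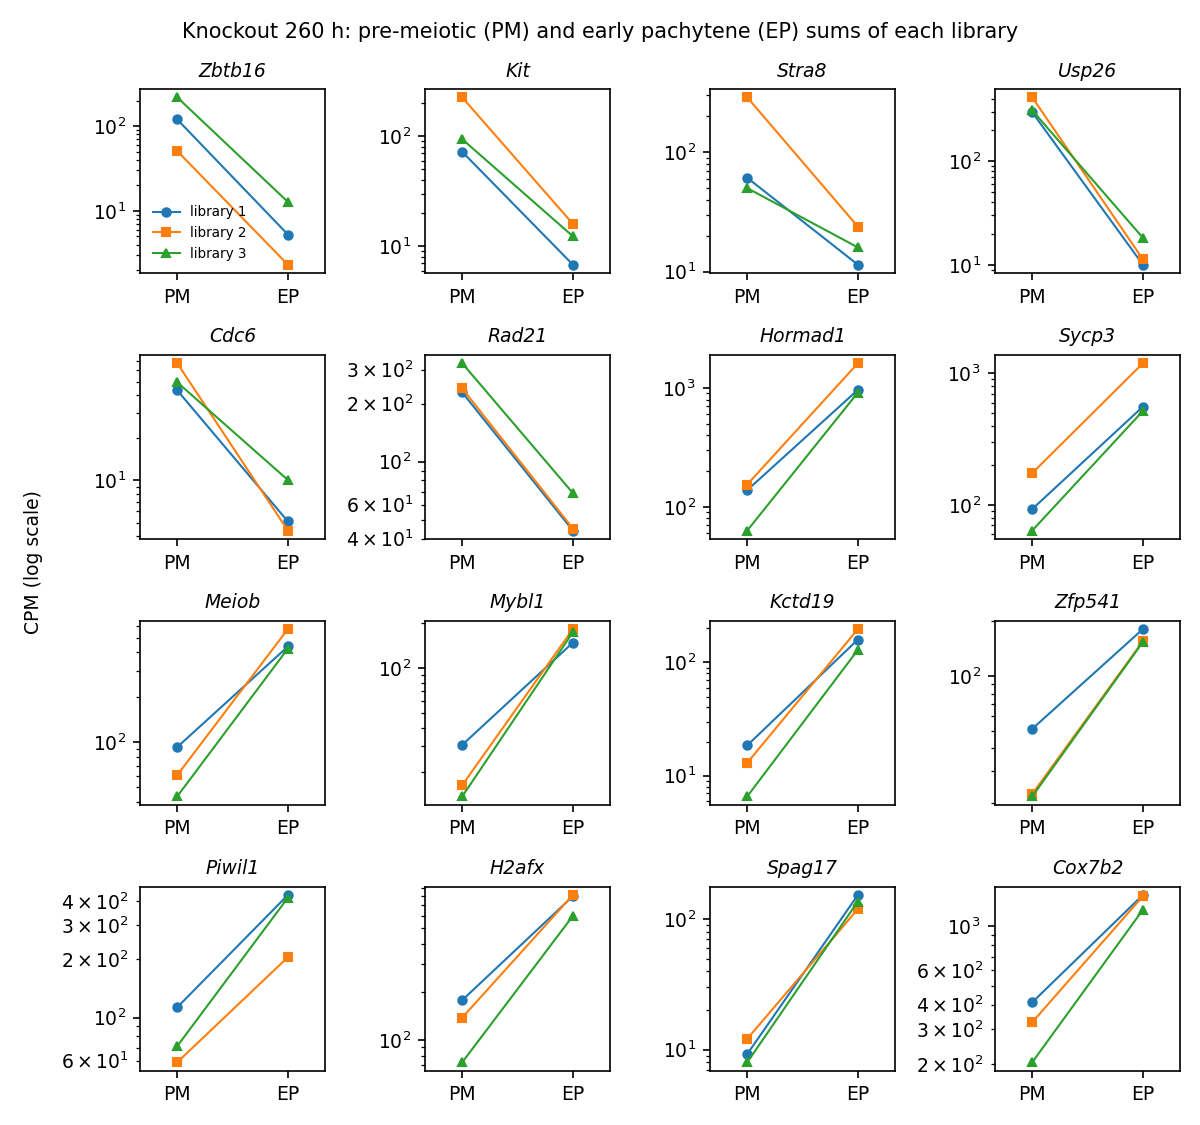
Levels of 16 genes in the pre-meiotic (PM) and early pachytene (EP) sums of each knockout library, in CPM on a log axis whose range differs between panels; a line joins the 2 sums of a library. Zbtb16, Kit, Stra8, Usp26, Cdc6 and Rad21 are lower and the other 10 higher in early pachytene in all 3 libraries.

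Genes of meiotic entry went both ways, 6 of 15 higher and 5 lower (median 0.30, and −0.01 with spike-in scaling). Stra8, the retinoic acid target that starts meiosis, was at 61.2, 289 and 50.1 CPM in pre-meiotic and at 11.4, 23.8 and 15.96 CPM in early pachytene sums (−2.68 ± 0.29). Its pre-meiotic level was highest in library 2. The retinoic acid receptor genes Rara (−1.99 ± 0.45) and Rxra (−1.67 ± 0.32) and the Myc family gene Mycn (−3.27 ± 0.48) were lower too. Meioc, needed to keep the meiotic programme on, was at 136, 70.4 and 94.4 CPM in pre-meiotic and at 452, 465 and 431 CPM in early pachytene sums (2.20 ± 0.16), and its partner, the helicase gene Ythdc2, was higher by 0.87 ± 0.16. The germ-cell surface gene Tex101 was at 761, 623 and 477 CPM in pre-meiotic and at 2145, 2640.4 and 2335 CPM in early pachytene sums (1.95 ± 0.13), and Dazl, an RNA-binding protein gene of germ cells, was higher by 0.64 ± 0.09. Gm4969 (Meiosin, a partner of STRA8) was higher (2.52 ± 0.57), but it faces Six5, and the labels used here do not say if reads were counted by strand, which makes it uncertain.

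More genes of DNA replication and of mitotic division were lower than higher. Of 38 replication genes 25 were lower and 5 higher (median −0.91), and of 29 division genes 14 were lower and 5 higher (−0.84). The origin-licensing gene Cdc6 was at 43.3, 67.4 and 49.4 CPM in pre-meiotic and at 5.10, 4.40 and 10.03 CPM in early pachytene sums (−3.11 ± 0.35), the DNA ligase gene Lig1 at 307, 418 and 432 CPM in pre-meiotic and at 108, 94.6 and 74.8 CPM in early pachytene sums (−2.04 ± 0.16) and the primase gene Prim1 at 69.1, 81.2 and 73.4 CPM in pre-meiotic and at 9.74, 10.9 and 18.2 CPM in early pachytene sums (−2.60 ± 0.27). The helicase subunit genes Mcm2 (−1.33), Mcm4 (−1.26) and Mcm6 (−1.22) were lower by less, and Pcna was not called (0.24 ± 0.18). The 5 members that were higher were the clamp loader genes Rfc2 (0.41), Rfc3 (0.62) and Rfc4 (0.45) and the helicase partners Gins1 (1.46) and Gins2 (0.82). Over 11 settings of the fit, 1 to 6 replication genes were called higher and 21 to 26 lower. The rises of Rfc2 and Rfc4 were not much larger than the shift between TMM and spike-in scaling. All 3 D-type cyclins, which drive entry into the cycle, were lower: Ccnd1 was at 98.7, 175 and 106 CPM in pre-meiotic and at 5.56, 8.33 and 6.38 CPM in early pachytene sums (−4.21 ± 0.23), and Ccnd2 and Ccnd3 changed by −3.44 and −3.21. The mitotic cyclin genes Ccna2 (−2.14 ± 0.19) and Ccnb1 (−1.86 ± 0.16) were lower, while Ccnb2 (1.11 ± 0.14), Cdk1 (0.64 ± 0.15) and the anaphase activator gene Cdc20 (1.30 ± 0.14) were higher.

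Counts of recombination genes differed by step. Of 17 genes of DNA break formation 8 were lower and 4 higher (median −0.58), of 25 of strand invasion 13 were higher and 5 lower (0.60), and of 18 of crossover formation 12 were higher and 1 lower (1.28). Among break genes Exo1, an exonuclease that trims broken ends, was at 107, 103 and 255 CPM in pre-meiotic and at 19.9, 11.3 and 37.4 CPM in early pachytene sums (−2.77 ± 0.20), and the break machinery genes Rec114 (−2.42 ± 0.59), Gm960 (Top6bl, −1.90 ± 0.43) and Ccdc36 (Iho1, −1.16 ± 0.33) were lower. Spo11, whose product makes the breaks, went the other way with 35, 33 and 10 UMIs in the pre-meiotic and 303, 178 and 88 in the early pachytene sums (1.97 ± 0.31). The break-site factor gene Ankrd31 (0.91 ± 0.13) and the RNA-binding protein gene Ewsr1 (1.14 ± 0.12) were higher as well. Meiob, a single-strand binding protein of recombination sites, was at 93.01, 60.5 and 43.6 CPM in pre-meiotic and at 437, 571 and 423 CPM in early pachytene sums (2.87 ± 0.18). Mnd1 (2.76 ± 0.18) and Psmc3ip (Hop2, 2.43 ± 0.15), which form 1 complex that helps strand exchange, rose together, and so did the recombinase gene Dmc1 (1.25 ± 0.15) and Hsf2bp (2.12 ± 0.13), a partner of BRCA2. Brca2 itself was not called (−0.20 ± 0.15). The crossover helicase gene Hfm1 was at 63.1, 59.6 and 41.4 CPM in pre-meiotic and at 307, 434 and 289 CPM in early pachytene sums (2.63 ± 0.15), the MutS homologue gene Msh4 at 16.9, 7.34 and 24.7 CPM in pre-meiotic and at 96.3, 122 and 89.8 CPM in early pachytene sums (2.74 ± 0.31) and 1700028K03Rik (Spo16) changed by 2.59 ± 0.27. Tex11, the member that was lower, is X-linked (134, 201 and 152 against 17.00, 11.1 and 22.3 CPM, −3.30 ± 0.24).

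Transcripts for the chromosome axis and the joining of homologues were mostly higher in early pachytene: 10 of 13 genes of the synaptonemal complex and its HORMA-domain regulators were higher and 1 lower (median 1.43). Hormad1, which marks axes that have not paired, was at 138, 154 and 63.2 CPM in pre-meiotic and at 966, 1618 and 917 CPM in early pachytene sums (3.31 ± 0.16). Sycp3, of the axis, was at 93.01, 174 and 63.9 CPM in pre-meiotic and at 558, 1192 and 517 CPM in early pachytene sums (2.77 ± 0.12). Library 2 had the highest Sycp3 and Hormad1 in both classes, and the classes did not overlap. The axis gene Sycp2 was at 341, 261 and 315 CPM in pre-meiotic and at 1203, 1312 and 1463 CPM in early pachytene sums (2.12 ± 0.11) and Sycp1, the transverse filament, changed by 1.61 ± 0.11 in log2 fold change. Trip13, an ATPase that removes HORMA proteins from the axis, was lower (−0.59 ± 0.17). Cohesin subunit genes had calls in both directions. Smc1a, on the X, was at 118, 158 and 185 CPM in pre-meiotic and at 9.43, 8.79 and 10.03 CPM in early pachytene sums (−3.97 ± 0.21), and its meiotic counterpart Smc1b at 394, 681 and 425 CPM in pre-meiotic and at 760.2, 892 and 858 CPM in early pachytene sums (0.78 ± 0.12). The mitotic kleisin gene Rad21 was at 228, 239 and 323 CPM in pre-meiotic and at 44.1, 45.1 and 68.9 CPM in early pachytene sums (−2.34 ± 0.15), and the X-linked Stag2 was lower (−3.97 ± 0.29) while the meiotic Stag3 was higher (0.72 ± 0.12). Smc3, common to both kinds of complex, was lower (−1.86 ± 0.13). Of 14 mitotic cohesin genes 7 were lower and 2 higher, and of 5 meiotic ones 4 were higher and none lower; Rec8 was not called (−0.08 ± 0.45). The loader gene Nipbl was higher by 1.89 ± 0.17.

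Of 18 genes that tie telomeres to the nuclear envelope 9 were higher and 2 lower (median 0.44). Spdya, a kinase activator at telomeres, was at 52.2, 34.6 and 28.3 CPM in pre-meiotic and at 289, 263 and 247 CPM in early pachytene sums (2.80 ± 0.17), and Majin (2.55 ± 0.19), Terb1 (1.89 ± 0.26) and Terb2 (1.69 ± 0.25), the 3 parts of the telomere bridge, were higher, as was Ccdc155 (KASH5, 1.89 ± 0.16), the link to dynein. Also higher was the lamin gene Lmna (1.76 ± 0.23). The telomere protein gene Terf2ip (RAP1, −1.18 ± 0.28) and the lamin gene Lmnb2 (−1.08 ± 0.34) were lower, and Terf1 (0.42 ± 0.26) and Pot1a (−0.20 ± 0.24), of the telomere cap, were not called.

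**Figure D4:**
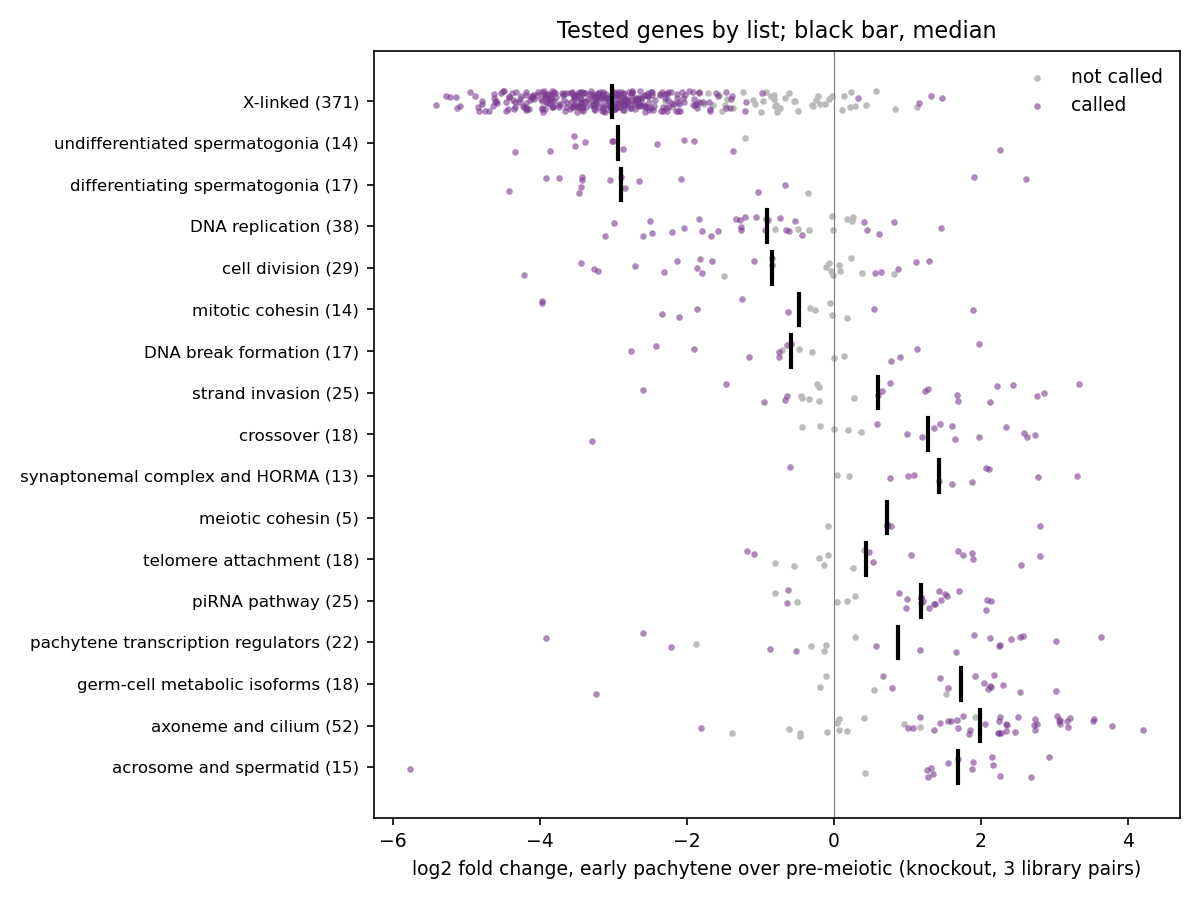
Log2 fold change of early pachytene over pre-meiotic in knockout (horizontal axis) for the tested genes of 17 lists (number tested in brackets); purple points were called, grey points were not, and a black bar is the list's median. Medians run from −3.01 for X-linked genes to 1.99 for axoneme and cilium genes.

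Genes of the sex body and of DNA damage signalling were split, 10 of 24 higher and 6 lower. The median was 0.06, and −0.24 with spike-in scaling. H2afx, the histone whose phosphorylated form covers the sex body, was at 178, 138 and 72.6 CPM in pre-meiotic and at 794, 808 and 598 CPM in early pachytene sums (2.54 ± 0.14). Mdc1, which spreads that mark, was at 120.1, 80.3 and 92.98 CPM in pre-meiotic and at 447, 449.9 and 570.0 CPM in early pachytene sums (2.31 ± 0.15), and the kinase gene Atr at 189.5, 184 and 153 CPM in pre-meiotic and at 516, 656 and 525 CPM in early pachytene sums (1.68 ± 0.12). The kinase genes Atm (−2.30 ± 0.17), Chek2 (−2.09 ± 0.39) and Chek1 (−0.69 ± 0.23) were lower. Of the clamp that loads at damage, the paralogue genes Hus1b (2.13 ± 0.47) and Rad9b (0.77 ± 0.22) were higher, while Hus1 (0.14 ± 0.31) and Rad9a (−0.95 ± 0.86) were not called. Of 14 histone variant genes 5 were higher and 2 lower. They included H2afz (1.78 ± 0.14), macroH2A1 (H2afy, 1.48 ± 0.16), which gathers on the sex body, and the testis H2B gene Hist1h2ba, at 18.5, 23.3 and 21.8 CPM in pre-meiotic and at 108, 122 and 56.5 CPM in early pachytene sums (2.16 ± 0.25). The protocol captures polyA RNA, so histone transcripts without a tail are missed.

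Chromatin enzyme genes had calls both ways. Of 13 DNA methylation genes 6 were lower and 4 higher. The maintenance methyltransferase gene Dnmt1 was at 249, 451 and 318 CPM in pre-meiotic and at 109, 118 and 101 CPM in early pachytene sums (−1.59 ± 0.15), and the de novo enzymes Dnmt3a (−1.29 ± 0.16) and Dnmt3b (−2.89 ± 0.25) were lower too. Of 27 histone methylation enzymes 10 were lower and 7 higher (median −0.12). The H3K9 methyltransferase gene Suv39h1 and the demethylase genes Kdm5c and Kdm6a lie on the X and changed by −3.26, −2.45 and −3.17. Autosomal members that were higher included Ezh2, of the Polycomb complex, at 109, 58.3 and 94.4 CPM in pre-meiotic and at 213, 223 and 259.9 CPM in early pachytene sums (1.44 ± 0.17), the H3K4 demethylase gene Kdm5b (1.24 ± 0.10) and Setd2 (1.16 ± 0.13).

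Transcription regulators of pachytene were higher in 12 of 22 cases and lower in 5 (median 0.87). Mybl1 (A-MYB), the activator of pachytene genes and piRNA precursors, had 96, 38 and 19 UMIs in the pre-meiotic and 960, 790 and 382 in the early pachytene sums. That was 30.6, 16.4 and 13.8 against 148, 183 and 174 CPM (3.02 ± 0.24). The testis bromodomain gene Brdt was at 113, 89.8 and 88.6 CPM in pre-meiotic and at 496, 729.6 and 530.4 CPM in early pachytene sums (2.57 ± 0.15). Rfx2 (2.25 ± 0.20), a factor of cilium and spermatid genes, Sox30 (2.26 ± 0.22), Crem (2.12 ± 0.20) and Ctcfl, a CTCF paralogue (1.91 ± 0.29), were higher as well. Taf7l, an X-linked TFIID subunit gene, was at 445, 463 and 442 CPM in pre-meiotic and at 37.4, 24.8 and 27.4 CPM in early pachytene sums (−3.91 ± 0.16), and Ovol2 was lower (−2.60 ± 0.75). Of 25 genes of the piRNA pathway 18 were higher and 2 lower (median 1.19). Piwil1 (MIWI), the PIWI protein loaded with pachytene piRNAs, was at 113, 58.7 and 71.2 CPM in pre-meiotic and at 431, 205 and 417 CPM in early pachytene sums (2.08 ± 0.15), library 2 having the lowest level in both classes. Tdrd12, a Tudor-domain helicase gene of piRNA production, was at 78.4, 105 and 53.8 CPM in pre-meiotic and at 345, 450.3 and 241 CPM in early pachytene sums (2.13 ± 0.13), Piwil2 (MILI) at 260.2, 174 and 225 CPM in pre-meiotic and at 678, 742 and 710.0 CPM in early pachytene sums (1.70 ± 0.13) and the RNA helicase gene Mov10l1, needed to make piRNA precursors ready, at 382, 379 and 350.1 CPM in pre-meiotic and at 860.4, 1206 and 968 CPM in early pachytene sums (1.44 ± 0.11). Btbd18, which promotes transcription of pachytene piRNA clusters, was not called (0.29 ± 0.23), nor was Fkbp6 (0.04 ± 0.10).

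To show sequence beside these values, the 250 bases before each start in RefSeq's promoter table (GRCm38.p6) were searched for 15 short motifs on both strands, in 12002 windows of 9412 of the 12876 genes tested. A gene can have several windows. The MYB letters CAACNGNC were in 8.92% of these windows and in 8.27% of all 32851 windows of the table. They were in 13.1% of the 2283 windows of genes higher by at least 2-fold, in 16.2% of the 735 windows of genes higher by at least 4-fold, in 6.44% of the 2455 windows of genes lower by at least 2-fold and in 6.06% of the 2097 of those on autosomes. This motif was singled out after the shares were seen, and a match is a description of the letters, not a binding site. No test was made.

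The stricter MYB letters CAACTGCC, which lie within CAACNGNC, were in 0.783% of windows of tested genes, 1.10% of genes higher by 2-fold and 0.407% of genes lower by 2-fold. The short RFX letters GTTGCCAT, which overlap the full RFX palindrome, were in 1.12%, 1.58% and 0.774%, the palindrome in 0.133%, 0.219% and 0.0815%, and the variant letters GTTGCTA in 2.92%, 4.51% and 1.67%. For CREB (TGACGTCA) the shares in the same order were 2.73%, 2.19% and 2.53%, for E2F (TTCCCGCC) 3.70%, 3.59% and 3.75%, and for its variant TTTGGCGC 0.842%, 0.569% and 0.774%. For STRA8 (CNCCTCAG) they were 7.43%, 7.97% and 7.01%, for NFY (CCAAT) 36.0%, 34.8% and 37.1%, and for the NRF1 palindrome 1.73%, 2.37% and 0.815%. For SP factors (GGGGCGGGG) they were 19.5%, 17.9% and 21.9%, for the YY1 motif 0.458%, 0.307% and 0.285%, for DMRT (ACANTGT) 3.56%, 4.38% and 3.06%, and for the E-box CACGTG 8.76%, 8.19% and 9.61%. In all 32851 windows the shares of the 14 motifs other than CAACNGNC were, in the order given, 0.974%, 1.12%, 0.110%, 3.16%, 1.55%, 1.86%, 0.417%, 6.42%, 33.9%, 0.782%, 10.4%, 0.207%, 6.47% and 6.02%.

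Of the 140 genes named here by rule, 60 that were higher had a window and 9 of them a MYB match, and 41 that were lower had a window and 4 of them a match. Here higher and lower are the sign of the fold change, called or not. Windows on chromosomes 8 and 18 were left out of this count. It counts genes, whereas the shares above count windows. The windows of 4 higher genes are shown to let the letters be seen in place, 5′ to 3′ on the gene's strand, with the match in capitals and the start of transcription just after the last base. That of Piwil1 is chr5:128735996-128736245 (plus strand, match 75 bases before the start), that of Tdrd12 chr7:35537716-35537965 (minus strand, 47 bases), that of Meioc chr11:102665335-102665584 (plus strand, 142 bases) and that of Cers2 chr3:95318580-95318829 (plus strand, 62 bases).
Piwil1: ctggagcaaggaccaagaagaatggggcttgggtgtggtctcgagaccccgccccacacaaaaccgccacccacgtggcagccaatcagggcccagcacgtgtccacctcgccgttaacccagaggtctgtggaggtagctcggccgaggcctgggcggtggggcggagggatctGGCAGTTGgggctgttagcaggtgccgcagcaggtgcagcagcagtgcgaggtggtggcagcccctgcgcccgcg
Tdrd12: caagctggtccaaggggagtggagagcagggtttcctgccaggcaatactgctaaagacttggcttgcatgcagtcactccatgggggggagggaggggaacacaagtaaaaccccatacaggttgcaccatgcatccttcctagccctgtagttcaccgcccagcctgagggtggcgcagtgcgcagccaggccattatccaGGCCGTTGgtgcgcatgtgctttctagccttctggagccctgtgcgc
Meioc: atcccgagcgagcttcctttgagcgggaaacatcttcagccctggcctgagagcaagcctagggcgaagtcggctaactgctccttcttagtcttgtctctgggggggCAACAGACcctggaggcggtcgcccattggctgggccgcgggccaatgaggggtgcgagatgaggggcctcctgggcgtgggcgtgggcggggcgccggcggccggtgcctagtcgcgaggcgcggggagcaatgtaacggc
Cers2: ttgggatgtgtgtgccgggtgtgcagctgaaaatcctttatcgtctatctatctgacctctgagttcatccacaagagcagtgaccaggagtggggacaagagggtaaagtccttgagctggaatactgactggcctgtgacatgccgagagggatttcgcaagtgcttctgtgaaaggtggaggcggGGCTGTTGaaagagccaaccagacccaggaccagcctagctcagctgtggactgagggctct

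The match reads GGCAGTTG in Piwil1, GGCCGTTG in Tdrd12 and GGCTGTTG in Cers2, which are the motif on the other strand, and CAACAGAC in Meioc. The genes were at 2.08, 2.13, 3.56 and 2.20 in log2 fold change, in the order Piwil1, Tdrd12, Cers2 and Meioc. The windows of Piwil1, Meioc and Cers2 lie within the span that the deposited table gives to the gene.

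Genes of the sperm tail, acrosome and sperm metabolism were already higher in early pachytene. Of 52 axoneme and cilium genes tested (of 66 in the table) 38 were higher and 1 lower (median 1.99), of 15 acrosome and spermatid genes (of 37) 13 were higher and 1 lower (1.69), and of 18 germ-cell metabolic isoforms (of 24) 13 were higher and 1 lower (1.74). Members that were too low to test are not counted, and a gene could pass the filter through early pachytene alone. The axonemal dynein heavy chain gene Dnah7a was at 13.4, 15.5 and 7.99 CPM in pre-meiotic and at 225, 304 and 162 CPM in early pachytene sums (4.21 ± 0.19), the largest change among named genes that were higher. Spag17, of the central pair of microtubules, was at 9.24, 12.1 and 7.99 CPM in pre-meiotic and at 154, 119.9 and 137 CPM in early pachytene sums (3.79 ± 0.24), Dnah8 at 40.1, 39.3 and 46.5 CPM in pre-meiotic and at 406, 548 and 524 CPM in early pachytene sums (3.54 ± 0.14) and the radial spoke gene Rsph1 changed by 2.74 ± 0.14. Fsip2, of the fibrous sheath of the tail, was at 14.7, 13.8 and 7.26 CPM in pre-meiotic and at 207, 221 and 167 CPM in early pachytene sums (4.03 ± 0.20). In each of these genes all 3 early pachytene sums lay above all 3 pre-meiotic sums. The rule that named Dnah7a, Spag17 and Fsip2 required this, so for them it adds no support. The acrosome genes Dkkl1 (70.2 ± 22.6 against 336 ± 115 CPM, SD, n = 3; 2.26 ± 0.14) and Dpy19l2 (2.92 ± 0.37), the sperm calcium channel gene Catsper2 (2.16 ± 0.23) and Odf2, of the outer dense fibres (1.27 ± 0.15), were higher. Tnp1, a spermatid transition protein gene, was the exception, with 13, 50 and 13 UMIs in the pre-meiotic and 1, 1 and 0 in the early pachytene sums. Prm1 and Prm2 had 0 to 3 UMIs in every sum.

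Metabolic isoforms of germ cells rose with them. The lactate dehydrogenase gene Ldhc was at 254, 245 and 147 CPM in pre-meiotic and at 1074, 906 and 756 CPM in early pachytene sums (2.10 ± 0.12), the testis cytochrome c gene Cyct at 165, 171 and 86.4 CPM in pre-meiotic and at 735, 655 and 482 CPM in early pachytene sums (2.17 ± 0.13), Cox7b2 at 411, 326 and 205 CPM in pre-meiotic and at 1432, 1412 and 1205 CPM in early pachytene sums (2.14 ± 0.13) and Cox8c, also of cytochrome oxidase, changed by 2.04 ± 0.12. The monocarboxylate transporter gene Slc16a7 (3.02 ± 0.79) and the glucose transporter gene Slc2a3 (1.92 ± 0.17) were higher, whereas the general hexokinase gene Hk1 was lower (−3.24 ± 0.32). Among the 10 genes with the largest rises were also the potassium channel gene Kcnk10 (5.73, 5.61 and 12.3 against 104, 75.7 and 171 CPM, 3.92 ± 0.25), the ceramide synthase gene Cers2 (5.28 ± 1.48 against 63.6 ± 5.33 CPM, 3.56 ± 0.31), the sphingomyelinase gene Smpd5 (3.55 ± 0.26), Elfn2 (3.68 ± 0.25), Als2cr12 (3.56 ± 0.25) and Zfp389 (3.85 ± 0.37). On autosomes the largest falls included the forkhead gene Foxr1 (93.6, 101 and 66.8 against 4.02, 1.85 and 4.56 CPM, −4.71 ± 0.33) and Upb1, an enzyme of pyrimidine breakdown (68.2, 133 and 47.2 against 1.70, 3.70 and 6.84 CPM, −4.51 ± 0.41).

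Of 87 ribosomal protein genes tested 41 were lower and 13 higher (median −0.25), and with spike-in scaling 64 were lower and 3 higher. Their share of gene UMIs was 8.78 ± 0.52% in pre-meiotic and 6.59 ± 0.70% in early pachytene sums (SD, n = 3), lower in 3 of 3 pairs. Rps2 was at 1301, 1474 and 1282 CPM in pre-meiotic and at 628, 666 and 513 CPM in early pachytene sums (−1.17 ± 0.10). Mitochondrial genome UMIs were 2.87 ± 0.86% and 2.60 ± 0.69% of gene UMIs, and of 14 mitochondrial genes 5 were higher and 1 lower; with spike-in scaling 2 were higher and 5 lower, so their direction depends on the scaling. Among p53 and apoptosis genes 5 of 19 were higher and 4 lower. The p53 feedback gene Mdm2 was higher (1.06 ± 0.19), as was Pmaip1, encoding the death factor NOXA (1.85 ± 0.31), while the target Ccng1 (−2.48 ± 0.30) and the death receptor gene Tnfrsf10b (−3.11 ± 0.49) were lower and Trp53 itself was not called (0.26 ± 0.20). Of 22 immediate early and stress genes 10 were lower and 3 higher. The AP-1 gene Jund was at 118, 107 and 197 CPM in pre-meiotic and at 16.2, 12.7 and 26.4 CPM in early pachytene sums (−2.94 ± 0.19), and the chaperone genes Hsp90aa1 (0.92 ± 0.08) and Dnajb1 (1.33 ± 0.16) were higher.

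Markers of other testis cells were present at low levels in both classes. The 6 Sertoli markers together stood at 172 to 288 CPM without TMM in the pre-meiotic and 140.3 to 272 in the early pachytene sums, most of it Clu, and Amh had 0 to 3 UMIs. The 5 Leydig markers were at 12.9 to 22.2 and 16.0 to 25.8, the 4 macrophage markers at 3.11 to 10.99 and 0.420 to 7.30, and the 3 peritubular markers at 19.6 to 114.6 and 21.1 to 97.5. Haemoglobin differed: Hbb-bs was at 16.2, 159 and 229.5 CPM in pre-meiotic and at 3.25, 115 and 28.3 CPM in early pachytene sums (−1.76 ± 0.53), with overlap between the classes, and it was not called without library 1 (−1.65). In the list of peritubular, endothelial, blood and immune genes 3 of 12 tested were lower and none higher. The part of other cells' RNA in the differences above was not tested.

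Whether the step differs when Zfp541 is intact was asked with a term for class by genotype over the 12 sums of the 3 wild-type libraries of 260 h and the 3 labelled knockout, a label that the Zfp541 levels do not check. This difference was not what chose the cells, and it is a test. In all, 223 of 14293 genes tested were called (1.56%), 201 with a log2 fold change higher in knockout than in wild type (1.41%) and 22 lower (0.154%). Of the 201, 161 had a fitted fall in wild-type early pachytene, 141 of them called, and 138 a fitted rise in knockout. The 201 were chosen by a higher change in knockout than in wild type, which favours both signs. Shares of such signs over all genes tested were not computed, so these counts only describe the 201. The genotypes also differ in the authors' clusters. All 141 knockout early pachytene cells are in cluster 3, as are all 72 of wild-type library 3, while the 25 of wild-type library 1 and 56 of the 57 of wild-type library 2 are in cluster 2. With wild-type library 3 alone as wild type, so that all early pachytene cells are of cluster 3, 401 genes were called, under the assumption that the lone library varies like the knockout ones. Wild-type libraries 1 and 2 also held more macrophage transcripts (43.8 to 77.6 CPM over 4 markers, against 0.420 to 10.99 in the other sums) and more Leydig transcripts (52.7 to 111.1 over 5 markers, against 9.93 to 25.8). Wild-type library 3 held 19.2 gene UMIs per spike-in UMI in its early pachytene and 17.8 in its pre-meiotic sum. The other sums of 260 h held 7.04 to 10.9. The part of this gap in the comparison with library 3 alone was not tested. Genotype and cluster cannot be told apart in wild-type libraries 1 and 2, and the part of other cells' RNA was not tested.

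The 10 genes with the smallest p fell in wild type. In knockout 5 of them rose, 3 fell by less and 2 were not called. The adjusted p-values are those of edgeR's quasi-likelihood test of the difference. Gapdh, of glycolysis, was at 685, 319 and 175 CPM in pre-meiotic and 129, 44.9 and 24.1 CPM in early pachytene sums of wild type, and 327, 481 and 198 and 289, 316 and 171 CPM in knockout. The difference was 2.36 ± 0.19, adjusted p = 1.73e-06, and it lay between 2.08 and 2.58 over the 15 settings that kept the library block. Gapdh was lower in early pachytene in each wild-type library, the third, of cluster 3, included. Pkm, the pyruvate kinase gene of growing cells, was at 273, 299 and 366 CPM in pre-meiotic and 98.8, 86.2 and 114 CPM in early pachytene sums of wild type, and 231, 169.5 and 216 and 264, 219.5 and 205 CPM in knockout (1.82 ± 0.19, adjusted p = 2.09e-05). Atp2b1, a calcium pump gene, was at 148, 155 and 131 CPM in pre-meiotic and 20.02, 15.7 and 10.8 CPM in early pachytene sums of wild type, and 166, 151 and 154 and 111, 136 and 117 CPM in knockout (2.93 ± 0.25, adjusted p = 2.17e-06). In both, the wild-type early pachytene sums lay below every knockout sum. Asns, the asparagine synthetase gene, a target of the amino acid stress response, was at 45.1, 12.2 and 16.3 CPM in pre-meiotic and 14.7, 5.33 and 3.33 CPM in early pachytene sums of wild type, and 28.7, 26.2 and 20.5 and 113, 65.5 and 95.5 CPM in knockout (3.61 ± 0.41, adjusted p = 6.51e-05). Rasgrp2, an exchange factor of small GTPases, was at 76.4, 33.9 and 26.1 CPM in pre-meiotic and 8.01, 8.37 and 5.39 CPM in early pachytene sums of wild type, and 74.03, 66.5 and 58.1 and 167, 139 and 110.4 CPM in knockout (3.53 ± 0.32, adjusted p = 3.9e-06). Asns and Rasgrp2 went up in all 3 knockout pairs and down in all 3 wild-type pairs. All 10 genes were chosen by this same difference, so separation of the genotypes in these genes, Gapdh, Pkm and Atp2b1 included, adds no support.

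Kmt2c, an H3K4 methyltransferase gene, was at 122, 178 and 204 CPM in pre-meiotic and 30.7, 24.6 and 26.4 CPM in early pachytene sums of wild type, and 118, 68.7 and 138 and 124, 101 and 126 CPM in knockout (2.81 ± 0.28, adjusted p = 1.05e-05), and within knockout it was not called. Zcwpw1, which reads the marks that PRDM9 sets at recombination sites, was at 303, 129 and 72.3 CPM in pre-meiotic and 219.5, 72.03 and 46.8 CPM in early pachytene sums of wild type, and 179, 288 and 169.8 and 353, 469 and 309.6 CPM in knockout (1.48 ± 0.19, adjusted p = 0.000242). Ptma fell in both genotypes, by 2.54 on the log2 scale in wild type and less in knockout (1.54 ± 0.16, adjusted p = 1.76e-05). Anp32a, which encodes a histone chaperone and phosphatase inhibitor (2.58 ± 0.32, adjusted p = 0.000175), and Tm7sf3 (3.17 ± 0.39, adjusted p = 0.000175) complete the 10. The adjusted p-values of the 10 reached at most 0.00391 in the 15 settings with the library block, the one with wild-type library 3 alone included. Without the block 4 of the 10 passed.

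**Figure D5:**
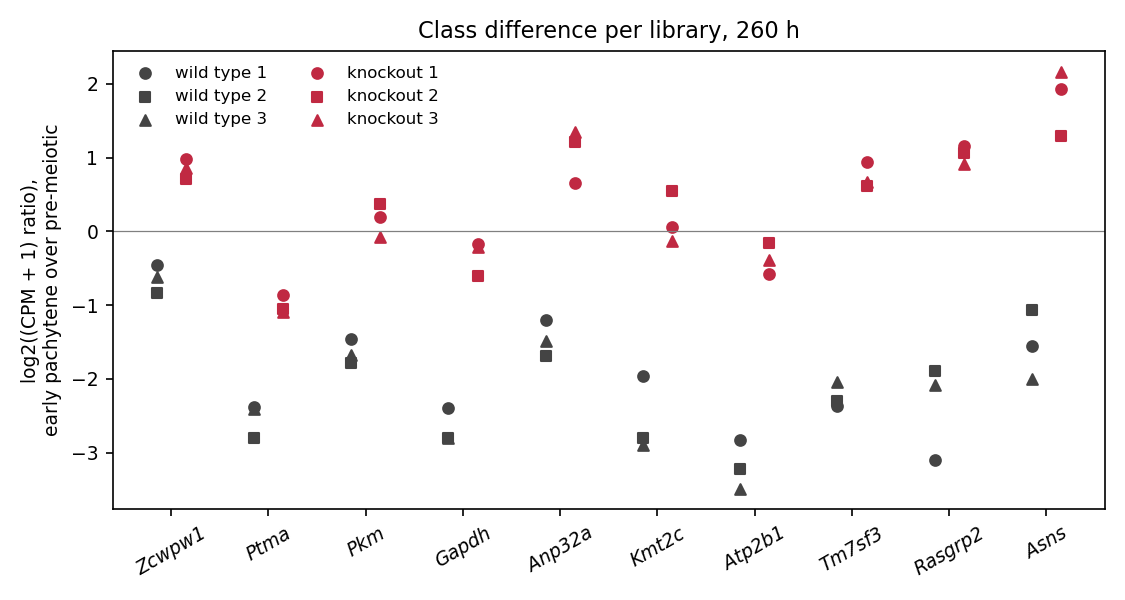
Early pachytene over pre-meiotic log2 ratio of CPM + 1 within each library (vertical axis) for the 10 genes with the smallest p of the genotype difference, wild type against knockout; a point is a library. For every gene the 3 knockout points (red) lie above the 3 wild-type points (grey). The genes were chosen by this same difference, so the separation is no further support.

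Of the genes named for the step within knockout, 9 differed between the genotypes in this test. There were 140 named genes in all, with the 10 above, and 1.56% of all genes tested were called. The step genes were named for large or steady changes in the same knockout libraries. That choice favours a larger change in knockout, so neither their count nor that direction is independent support. Fsip2 (1.11 ± 0.28, adjusted p = 0.0466), Prss50 (1.04 ± 0.25, adjusted p = 0.0394) and H2afx (1.12 ± 0.23, adjusted p = 0.0152) rose in both genotypes and by more in knockout. H2afx was at 39.9, 145 and 280.2 CPM in pre-meiotic and 153, 345 and 749 CPM in early pachytene sums of wild type, and 176, 137 and 66.1 and 809, 835 and 591 CPM in knockout, so the wild-type libraries differed more among themselves than the knockout ones. Rbmx2 (−1.70 ± 0.41, adjusted p = 0.0411), Exo1 (−1.62 ± 0.32, adjusted p = 0.0112) and Taf7l (−0.97 ± 0.20, adjusted p = 0.0154) fell in both and by more in knockout, and Dnmt3a fell by less (1.14 ± 0.28, adjusted p = 0.0472). The others are Zcwpw1 and Asns. Of 423 X-linked genes 3 were called lower in knockout and none higher. Of 87 ribosomal protein genes 10 were called higher and none lower (median difference 0.36), but 2 with DESeq2 size factors and 1 with spike-in scaling, where the median was 0.07. The log2 ratio of their share of UMIs was −0.42 ± 0.07 in knockout and −0.67 ± 0.02 in wild type (SD, n = 3 each), and the 3 knockout ratios all lay above the 3 wild-type ratios. The exact two-sided permutation test gave p = 0.1, the smallest that 3 against 3 allows (adjusted p = 0.225), so this design cannot pass the threshold. The share of calls that were higher also moved with scaling, from 90.1% to 76.4% with DESeq2 size factors and 55.0% with spike-in scaling, and to 61.8% without wild-type library 1.

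Other genes were chosen after their values were seen. Crybg3 was at 39.9, 9.50 and 20.02 CPM in pre-meiotic and 58.05, 39.3 and 11.5 CPM in early pachytene sums of wild type, and 66.8, 126 and 44.9 and 6.77, 11.2 and 7.66 CPM in knockout (−3.55 ± 0.52, adjusted p = 0.00107), and Selenos, of protein quality control in the endoplasmic reticulum, rose in wild type by more (−1.33 ± 0.22, adjusted p = 0.00234). Both are among the 22 genes lower in knockout. Ctcfl was at 20.8, 4.07 and 1.23 CPM in pre-meiotic and 2.00, 1.52 and 1.47 CPM in early pachytene sums of wild type, and 11.97, 9.01 and 21.1 and 49.4, 46.9 and 62.6 CPM in knockout (3.57 ± 0.71, adjusted p = 0.0118), Tex15, of piRNA-guided silencing and recombination, at 419, 425 and 259 CPM in pre-meiotic and 92.7, 69.2 and 78.3 CPM in early pachytene sums of wild type, and 355, 453 and 467 and 229, 372 and 267 CPM in knockout (1.59 ± 0.21, adjusted p = 0.000429) and the H3K4 methyltransferase gene Kmt2a at 259, 205 and 230.0 CPM in pre-meiotic and 58.7, 16.5 and 34.4 CPM in early pachytene sums of wild type, and 194, 210.3 and 328 and 118, 124 and 165 CPM in knockout (1.98 ± 0.27, adjusted p = 0.00066).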

How the data were processed

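UMI counts per gene and cell were deposited by the authors, with a deposited cell table that gives each kept cell its class and k-means cluster. UMI-tools 1.0.0, STAR 2.5.3a, featureCounts 1.6.4 and mm10 are named in the submitters' processing notes. The labels used here do not state strand, cell filters or doublet removal, and no doublet caller was run. Counts of 55450 genes were summed per library and class. The 92 spike-ins were left out of library sizes. edgeR 4.0.16 (R 4.3.3; TMM, filterByExpr by class, glmQLFit robust, quasi-likelihood F-test) was fitted with library and class as terms on 6 sums, and with class by genotype on 12, with Benjamini-Hochberg adjustment over all genes tested. The library pairs the sums by construction, since both classes come from it (correlations of deviations within a library 0.36, 0.466 and 0.5, the highest with another library −0.112). The deviations were taken from class means over 3 libraries. Positive correlations within libraries then push those with other libraries below 0, so the contrast is in part built in. Totals of 1273457 to 7142215 UMIs per knockout sum limit the precision for genes of few UMIs.

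Named genes are Zfp541, the 10 called genes with the largest fold change in each direction (mean CPM of at least 20, no overlap between classes, predicted genes left out), up to 4 called members of each of 33 lists by smallest p, and the 10 genes of smallest p for the genotype difference. Other list members given as examples were chosen after their values were seen. The members and lists were chosen with earlier results of these data known. Alternatives were another scaling (DESeq2 1.42.0 size factors, spike-ins), test (DESeq2, limma 3.58.1), filter, weighting, thinning to 44000 UMIs per cell, no block, and leaving out each library. Both fits were tested on simulated counts with changes put into genes above 20 CPM. The class fit recovered 73% of log2 changes of 1 and 92% of changes of 2, with 5.71% of its calls false. Only 100 genes of each size were changed, whereas 54.1% of genes were called in the real class fit. Recovery and false share of that fit may thus differ in the real data. For the genotype difference the fit recovered 36% and 94%, with 5.80% of its calls false. Most 2-fold differences between genotypes would thus be missed. Promoter windows came from RefSeq (GRCm38.p6).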

Additional observations from a re-analysis of the deposited data

Results flagged for a closer look

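The step from pre-meiotic to early pachytene differed between knockout and wild type in 223 genes by the test of the difference. Among the named genes the difference of the log2 fold change, knockout minus wild type, was above 0 for Asns (3.61), Rasgrp2 (3.53), Tm7sf3 (3.17), Atp2b1 (2.93), Kmt2c (2.81), Anp32a (2.58), Gapdh (2.36), Pkm (1.82), Ptma (1.54), Zcwpw1 (1.48), Dnmt3a (1.14), H2afx (1.12), Fsip2 (1.11) and Prss50 (1.04). It was below 0 for Rbmx2 (−1.70), Exo1 (−1.62) and Taf7l (−0.97). Alternative settings were compared only for the 10 genes named for this difference. Fsip2, Prss50, H2afx, Dnmt3a, Rbmx2, Exo1 and Taf7l were not compared, and Fsip2, Prss50, Dnmt3a and Rbmx2 lay nearest the threshold.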

How the results depend on the processing

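Of 1680 alternative values of the 140 named genes, 1637 kept direction and call, 37 kept direction but lost the call, and 6 reversed. Those 6 are Kmt2c with spike-in scaling (−0.21), cells thinned (−0.0606), cells weighted alike (−0.19) and without knockout library 2 (−0.0790, against 0.208 without library 3), and Pkm with spike-in scaling (−0.20) and cells weighted alike (−0.11). Neither gene was called within knockout. The count of 6967 genes called within knockout was 4876 with no replicate block and ran from 5350 to 6574 when a library was left out. The count of 223 genes that differed between genotypes was less steady. It was 144 with DESeq2 size factors, 120 with spike-in scaling, 363 with limma-voom, 148 with cells thinned, 119 with cells weighted alike, 401 with cluster 3 only and 4 with no replicate block, where the spread between libraries stays in the error. Leaving out a library gave 72 (without wild-type library 2) to 411 (without wild-type library 1), with 81 without wild-type library 3, 147 without knockout library 1 and 119 without knockout library 3. The cause was not tested. Of 150 alternative values of the 10 genes named for that difference, 144 kept their call, and the 6 that lost it were all without the block. With medians over cells in place of sums, early pachytene over pre-meiotic was −0.11 (log2) for UMIs of genes relative to spike-ins and 0.0986 for the spike-in share. Cluster 2 alone holds no knockout cell, cluster 3 alone leaves the knockout cells as they are, and no library had fewer than 5 cells in a class, so these alternatives gave no other value within knockout.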

Other observations

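In the knockout libraries of 360 h early pachytene cells were few: none in library 1, 5 in library 2 and 2 in library 3, and only library 2 (9 pre-meiotic cells) was used, with no replicate. Its X-linked share of gene UMIs was 2.69% in early pachytene and 1.94% in pre-meiotic cells, so it was not lower in early pachytene as at 260 h. Of 4014 genes with at least 10 UMIs that had changed by at least 2-fold at 260 h, 65.0% moved the same way, 1087 of 2081 higher genes and 1521 of 1933 lower genes. For the higher genes that is close to an even split, so the pooled share does not show that the rises recurred. The early pachytene sum held 289062 gene UMIs and the pre-meiotic sum 915895. The part of this depth gap in the falls was not tested. The 5 early pachytene cells belong to the authors' cluster 2, which holds none of the knockout cells of 260 h.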
